A study of Mus musculus with 8 samples.

Results

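The unfolded protein response and the integrated stress response were followed in the mouse spinal cord through 37 genes of the 47643 gene rows in the count table, found by symbol. They comprised 18 targets of the transcription factor ATF4, 14 targets of ATF6 and XBP1, and 5 sensors and factors (Eif2ak3, Ern1, Atf6, Atf4 and Xbp1). All 37 had reads and passed the filter on low counts. The libraries came from C57BL/6 mice, 4 labelled heterozygous and 4 labelled homozygous, in a study of Arf1, a small GTPase that recruits coat proteins to Golgi membranes. The treatment note gives tamoxifen at 100 mg/kg, injected intraperitoneally, as the means of deleting Arf1, without saying which animals received it, and the growth note gives ages of 2 to 10 months. The sources used here do not give the allele behind each genotype label, the Cre driver, or the age and sex of single animals. The submitters' design note names neurons as the cells of interest, while the RNA is from whole cord, and every animal carries one of the 2 genotype labels, so the comparison has no wild-type arm. Nothing in the labels ties libraries together. Whether each came from its own mouse is stated only through a different number in each title, so the p-values measure the spread between these libraries.

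The unfolded protein response is the answer of a cell to misfolded protein in the endoplasmic reticulum (ER). Its sensors are PERK (Eif2ak3), IRE1 (Ern1) and ATF6: cleaved ATF6 and spliced XBP1 drive genes for chaperones and for degradation of misfolded protein, while PERK phosphorylates the initiation factor eIF2. That phosphorylation lowers protein synthesis and favours translation of ATF4, and it is shared with kinases that sense amino acid shortage, heme shortage and viral RNA, which together make up the integrated stress response. ATF4 targets therefore can move without the ER chaperones, and Arf1 acts on the vesicles that return ER proteins from the Golgi.

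The libraries held 26321497 to 37879391 rounded expected counts. Arf1 stood at 334, 296, 322 and 303 CPM (counts scaled to a common library size by edgeR's TMM factors) in heterozygous replicates 1 to 4 and at 22.5, 22.8 and 39.9 CPM in homozygous replicates 2 to 4, while homozygous replicate 1, by its label, stood at 307 CPM. Its Arf1 level goes against that label, so counts of members called, class medians and the class contrast are given with it (8 libraries) and without it (7 libraries). Some single genes have a fold change from just the 8 or just the 7. Headers of the authors' tables of selected genes name 6 libraries, which leave out homozygous replicate 1 and heterozygous replicate 1. The same counts, medians and contrast are given for those 6, with values of some single genes. The 3 comparisons share libraries, so they are not independent of each other. In homozygous replicate 3, 92.36% of reads mapped and 2.44% of bases were ribosomal, against 98.33% to 98.53% and 0.10% to 0.34% in the others. Markers of neurons, oligodendrocytes and astrocytes and the Hox genes of the cord were present in every library. Several other marker lists differed by label, and their values are given after the class results.

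**Figure D1:**
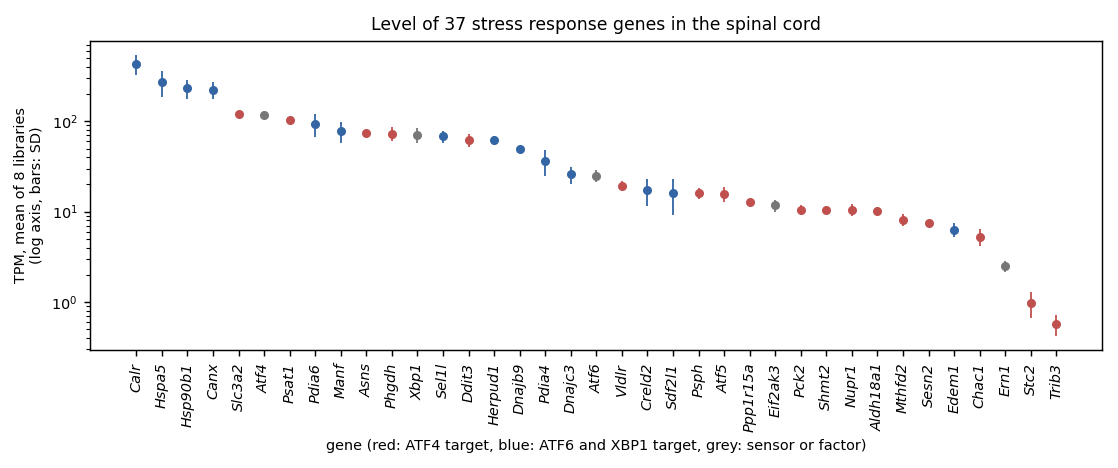
Mean TPM of each of the 37 genes over the 8 libraries on a log axis, with bars for the SD, ordered from high to low and coloured by class. The ER chaperones Calr (434 TPM), Hspa5 (275 TPM), Hsp90b1 (233 TPM) and Canx (223 TPM) lead the order, and Stc2 (0.978 TPM) and Trib3 (0.565 TPM) end it.

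On the per-length scale (TPM, transcripts as a share of all transcripts of a library; mean ± SD over the 8 libraries), ER chaperones made up the top of the order. The lectin chaperone Calr averaged 434 ± 112 TPM and the Hsp70 chaperone Hspa5 (BiP) 275 ± 87.2 TPM (both n = 8). Hsp90b1 (GRP94) and Canx, the membrane-bound partner of Calr, followed at 233 ± 55.4 and 223 ± 46.7 TPM. The SDs measure the spread between libraries, and these genes were read in the same 8 libraries. Overlap of the SDs therefore does not settle the order of Hspa5, Hsp90b1 and Canx, which was not tested within libraries. The highest ATF4 target was Slc3a2, a heavy chain of amino acid transporters, at 120 ± 10.7 TPM, next to Atf4 itself at 118 ± 11.3 TPM. Among the sensors Atf6 averaged 24.9 TPM, Eif2ak3 11.7 TPM and Ern1 2.51 TPM, while Xbp1 averaged 71.2 TPM. The pro-apoptotic ATF4 targets were spread over the range, with Ddit3 (CHOP) at 62.4 ± 10.8 TPM, Chac1, which degrades glutathione, at 5.25 ± 1.14 TPM and the pseudokinase Trib3 at 0.565 ± 0.145 TPM. Trib3 rested on 13 to 30 counts a library, so its values are the least precise.

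Promoters of the members were searched for 4 elements known from these pathways, on both strands, from 250 bases before to 50 after the annotated start (RefSeq, GRCm38.p6). 35 of the 37 members matched an entry, and Manf and Atf6 did not. The ER stress element, ERSE, is bound by ATF6 with NF-Y and reads CCAAT and CCACG with 9 bases between. It lay in the promoters of 7 of the 13 ATF6 and XBP1 targets that had an entry, against 39 of all 32851 promoters in the table (0.119%). None of the 18 ATF4 targets held it. These are textbook targets, some of which defined the element, so the count describes the list and is no finding of these data. The ERSE windows below show the genes described next, 5′ to 3′ in the direction of the gene, with the element in capitals. An element on the other strand appears as its complement, CGTGG first and ATTGG last.
Hspa5, chr2:34772005-34772063: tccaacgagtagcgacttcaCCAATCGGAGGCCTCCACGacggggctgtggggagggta
Hsp90b1, chr10:86705618-86705676: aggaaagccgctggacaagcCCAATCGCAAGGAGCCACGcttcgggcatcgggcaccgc
Dnajc3, chr14:118937807-118937865: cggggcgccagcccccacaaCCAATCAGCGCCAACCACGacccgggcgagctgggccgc
Creld2, chr15:88819500-88819558: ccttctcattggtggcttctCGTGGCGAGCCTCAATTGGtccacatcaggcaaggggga
Pdia6, chr12:17266471-17266529: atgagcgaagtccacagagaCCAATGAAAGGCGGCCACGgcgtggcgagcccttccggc
Calr, chr8:84847055-84847113: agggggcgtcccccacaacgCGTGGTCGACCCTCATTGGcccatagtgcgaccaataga
Canx, chr11:50325780-50325838: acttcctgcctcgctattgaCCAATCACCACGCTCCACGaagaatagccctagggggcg

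The second form of this element, ERSE-II (ATTGG and CCACG with 1 base between), was found in Herpud1 alone among the members, and in 12 of all promoters (0.0365%). The XBP1 element TGACGTGG was found in no member and in 0.676% of all promoters. The ATF4 element, CARE, was read as TGATGNAA. It was found in 6 of the 18 ATF4 targets (Chac1, Trib3, Asns, Pck2, Nupr1 and Vldlr) and in Herpud1, against 3.97% of all promoters. None of these matches overlapped another searched element. The windows of 3 ATF4 targets follow, with the element or its complement in capitals.
Chac1, chr2:119351029-119351076: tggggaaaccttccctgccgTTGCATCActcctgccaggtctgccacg
Pck2, chr14:55540143-55540190: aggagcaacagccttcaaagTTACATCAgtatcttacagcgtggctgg
Nupr1, chr7:126625553-126625600: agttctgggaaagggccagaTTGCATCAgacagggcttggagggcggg

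No member passed edgeR's quasi-likelihood test of homozygous against heterozygous at an adjusted p of 0.05. With 8 libraries the count was 0 of 37, where 0% of all 16511 genes tested passed, and with 7 libraries it was again 0 of 37, where 1.22% of 16560 genes passed. With the 6 libraries it was 0 of 37 against 1.41% of 16425 genes. At an unadjusted p of 0.05 with 8 libraries, 1 member was higher in homozygous cord (background 7.87%) and 4 were lower (background 8.90%). With 7 libraries 5 were higher (background 9.51%) and 6 lower (background 9.94%), and with 6 libraries 5 were higher (background 8.57%) and 4 lower (background 9.75%). Some alternatives called a few members. DESeq2 called 2 with 8 libraries (4.57% of all genes) and 4 with 7 (6.95% of all genes), and limma on log2 TPM called 7 lower with 7 libraries, where 12.5% of all genes were called lower. With 7 libraries edgeR called 1 member with no filter on low counts (1.65% of all genes), 2 without homozygous replicate 4 (2.38%) and 2 at an adjusted p of 0.1 (5.04%). In whole-tissue RNA, fewer cells of a type and less RNA of a gene per cell cannot be told apart.

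**Figure D2:**
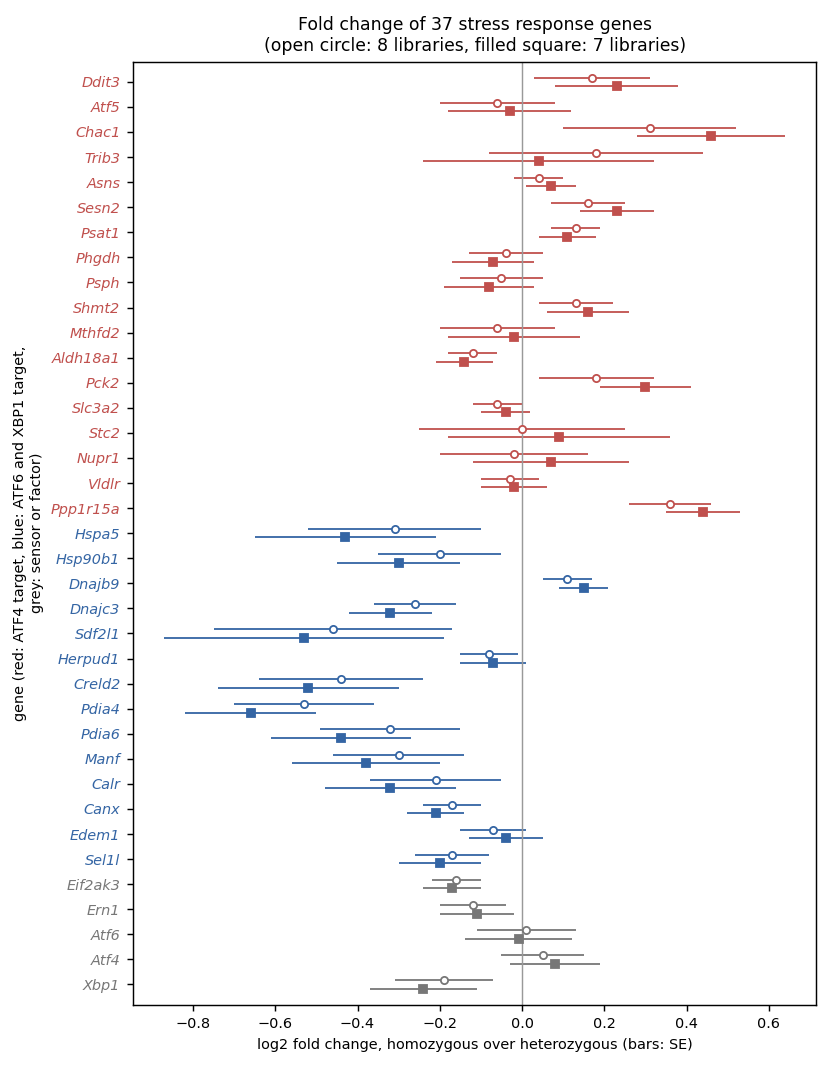
Log2 fold change of homozygous over heterozygous cord for each of the 37 genes, with bars for the SE, from the fit of 8 libraries (open circles) and of 7 libraries (filled squares). Of the 14 ATF6 and XBP1 targets, 13 lie left of 0 in both fits, while the ATF4 targets lie on both sides. No gene passed the adjusted threshold, and on the log2 TPM scale the median of the ATF4 targets turns negative.

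The ATF6 and XBP1 targets leaned towards lower levels in homozygous cord. Their log2 fold change was negative for 13 of 14 genes in each of the 3 comparisons, with medians of -0.24 (8 libraries), -0.32 (7 libraries) and -0.18 (6 libraries). Over all genes tested the medians were 0.0015, 0.0027 and 0.0094, and 50.4%, 50.5% and 51.7% of genes were positive. The genes of this class share regulators, so their directions are not separate observations. Leaving out heterozygous replicate 1 from the 8 libraries moved the class median to -0.10, the value nearest 0 of any single omission.

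Chaperone levels varied widely between libraries. Hspa5, the Hsp70 of the ER lumen, stood at 599, 376, 365 and 345 CPM in heterozygous replicates 1 to 4 and at 425, 273, 280 and 385 CPM in homozygous replicates 1 to 4. Heterozygous replicate 1 was far above every other library, and homozygous replicates 2 and 3 lay below all heterozygous libraries, while homozygous replicate 4 lay among them. Hspa5 is a plus-strand gene of chromosome 2, from 34771970 to 34777547 (GRCm38, GENCODE M21). Hsp90b1, the ER Hsp90, had the same order at its ends, with 514, 340, 379 and 377 CPM against 417, 296, 300 and 383 CPM. Calr, which binds glycoproteins as they fold, measured 509, 337, 353 and 354 CPM against 406, 290, 281 and 363 CPM. In these 3 genes the groups overlapped with 8, 7 and 6 libraries, because homozygous replicate 4 was at or above several heterozygous libraries.

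Canx, the calnexin gene, separated the groups by a small margin. It stood at 406, 375, 382 and 376 CPM in the heterozygous libraries and at 369, 324, 317 and 355 CPM in the homozygous ones, so every homozygous library was below every heterozygous one. The log2 fold change was -0.17 (SE 0.07, edgeR adjusted p = 0.23) with 8 libraries and -0.21 (SE 0.07, edgeR adjusted p = 0.136) with 7. Canx did not pass edgeR's test. With 7 libraries DESeq2 called it (adjusted p = 0.0255), as did limma on log2 TPM (adjusted p = 0.0239), where the fold change was -0.59, and -0.48 with 8.

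Among the protein disulfide isomerases, Pdia4 had the largest shift of the class in each comparison. Pdia4, which forms and rearranges disulfide bonds, is a minus-strand gene of chromosome 6, from 47796141 to 47813430. Its levels were 74.2, 53.5, 51.7 and 51.4 CPM in heterozygous replicates 1 to 4 and 49.5, 33.2, 32.2 and 44.1 CPM in homozygous replicates 1 to 4. The groups did not overlap, and the library with heterozygous-like Arf1, homozygous replicate 1, was the one nearest to the heterozygous range. The mean was 57.7 ± 11.0 CPM (SD, n = 4) in heterozygous and 39.8 ± 8.46 CPM (SD, n = 4) in homozygous libraries, or 36.5 ± 6.61 CPM (SD, n = 3) without homozygous replicate 1. The log2 fold change of Pdia4 was -0.53 (SE 0.17, edgeR adjusted p = 0.184) with 8 libraries, -0.66 (SE 0.16, edgeR adjusted p = 0.0858) with 7 and -0.51 (SE 0.11, edgeR adjusted p = 0.0647) with 6. It missed the threshold in all 3, and passed it in DESeq2 (adjusted p = 0.0354 with 8 and 0.00193 with 7) and, with 7 libraries, on the log2 TPM scale and without homozygous replicate 4 (edgeR adjusted p = 0.0407). The 250 bases before its start, shown since it had the smallest p of its class, held none of the 4 elements.
Pdia4, chr6:47813513-47813762, minus strand: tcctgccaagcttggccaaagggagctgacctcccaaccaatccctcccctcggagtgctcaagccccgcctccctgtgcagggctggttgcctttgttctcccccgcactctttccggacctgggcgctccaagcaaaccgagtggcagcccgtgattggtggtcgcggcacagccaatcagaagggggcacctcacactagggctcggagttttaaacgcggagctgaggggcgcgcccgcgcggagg

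Pdia6, a second disulfide isomerase, followed Hspa5 with 165, 115, 111 and 106 CPM in heterozygous and 123, 83.4, 84.6 and 108 CPM in homozygous libraries. Creld2, an ER protein induced by ER stress, measured 20.3, 12.3, 12.4 and 12.1 CPM against 12.4, 9.30, 8.22 and 12.2 CPM. In both genes homozygous replicates 2 and 3 were below all heterozygous libraries, and homozygous replicates 1 and 4 were not.

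The co-chaperones did not move as one. Dnajc3 (p58IPK), which assists Hspa5 and inhibits PERK, measured 102, 78.2, 78.9 and 86.1 CPM in heterozygous and 81.4, 71.1, 62.9 and 72.7 CPM in homozygous libraries. Without homozygous replicate 1 its groups did not overlap. It had a log2 fold change of -0.26 (SE 0.10, edgeR adjusted p = 0.239) with 8 libraries and -0.32 (SE 0.10, edgeR adjusted p = 0.131) with 7, and DESeq2 called it with 7 (adjusted p = 0.0491). On the log2 TPM scale its values were -0.42 and -0.51, the second called (limma adjusted p = 0.0356), and without heterozygous replicate 1 the 8-library value was -0.17. Dnajb9 (ERdj4), a co-chaperone counted as an XBP1 target, was the single member of the class with a positive fold change and is named for that after its values were seen. It stood at 51.6, 49.1, 49.2 and 46.0 CPM in heterozygous and 48.3, 55.8, 52.1 and 55.4 CPM in homozygous libraries. Without homozygous replicate 1 all its homozygous values were above the heterozygous ones. Sdf2l1, a part of the Hspa5 chaperone complex, stood at 17.1, 9.37, 8.82 and 6.36 CPM against 8.59, 6.07, 6.25 and 9.33 CPM, with overlapping groups.

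Of the secreted and degradation genes, Manf, an ER-resident trophic factor, stood at 50.8, 36.7, 35.0 and 29.5 CPM in heterozygous and 36.0, 25.7, 29.2 and 32.7 CPM in homozygous libraries. Sel1l, the adaptor of the HRD1 ubiquitin ligase, ranged from 156 to 216 CPM in heterozygous and 156 to 171 CPM in homozygous libraries. Herpud1, which recruits substrates to that ligase and held both ERSE-II and CARE letters, lay at 58.2 to 58.3 CPM in 3 homozygous libraries and 64.0 CPM in the fourth, inside the heterozygous range of 56.9 to 69.2 CPM. Edem1, which marks mannose-trimmed glycoproteins for degradation, kept to 19.4 to 21.2 CPM in heterozygous and 17.6 to 21.4 CPM in homozygous libraries. The groups overlapped in all 4 genes.

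**Figure D3:**
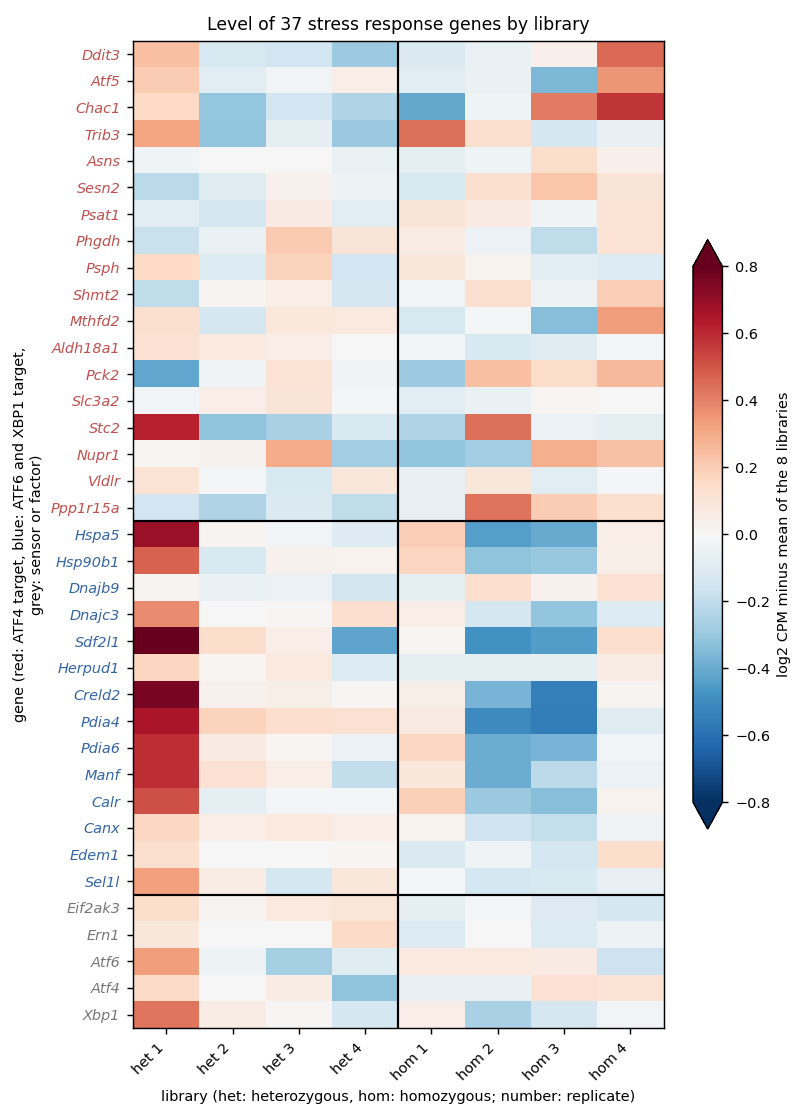
Log2 CPM of each of the 37 genes (rows, grouped by class) in each of the 8 libraries (columns), less the mean of that gene over the libraries; red is above and blue below the mean. In heterozygous replicate 1, 12 of the 14 ATF6 and XBP1 targets reach their highest level, and 5 and 6 of them are at their lowest in homozygous replicates 2 and 3.

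Heterozygous replicate 1 held the highest level of 12 of the 14 ATF6 and XBP1 targets, where it was the highest library for 16.3% of all genes tested. The lowest level was in homozygous replicate 3 for 6 of the 14 genes and in homozygous replicate 2 for 5, against 15.8% and 13.6% of all genes. All 7 genes with an ERSE had their highest level in heterozygous replicate 1, and their fold changes were all negative, from -0.44 to -0.17 with 8 libraries, -0.52 to -0.21 with 7 and -0.30 to -0.16 with 6. The median was -0.26, -0.32 and -0.21 in the 3 comparisons, beside -0.13, -0.14 and -0.07 for the 6 genes of the class whose promoter held no ERSE. The second group included Pdia4 and Dnajb9, its lowest and highest value.

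Without heterozygous replicate 1 and homozygous replicate 1, Hspa5 averaged 362 ± 15.7 CPM in heterozygous (SD, n = 3) and 312 ± 62.7 CPM in homozygous libraries (SD, n = 3). The 3 heterozygous values were within a narrow range and the homozygous ones were split, with replicate 4 above all 3 heterozygous libraries. Pdia4 averaged 52.2 ± 1.13 CPM and 36.5 ± 6.61 CPM in the same 6 libraries, with no overlap.

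Sums of cell type markers also differed between libraries. The summed level of the 7 Schwann cell markers was 450 to 994 CPM in heterozygous and 384 to 559 CPM in homozygous libraries, that of 6 fibroblast markers 93.6 to 169 and 79.1 to 94.0 CPM, and that of 6 endothelial markers 146 to 190 and 86.7 to 160 CPM. None of these markers was at 0 in any library. In heterozygous replicate 1, where the chaperones were highest, the Schwann and fibroblast sums were the lowest of the heterozygous group, at 450 and 93.6 CPM. The 5 motor neuron markers summed to 26.1 CPM in heterozygous replicate 1, 26.5 and 24.7 CPM in homozygous replicates 2 and 3, and 36.6 to 54.9 CPM in the other libraries. Of the 6 blood and plasma cell markers, Mzb1 was at 0 to 0.131 CPM and Jchain at 0.233 to 0.524 CPM. Hbb-bs, Hba-a1 and Alas2 had positive log2 fold changes, of 0.84, 0.88 and 0.85 with 8 libraries and 0.77, 0.76 and 0.70 with 7. Their groups overlapped, and none was called (edgeR adjusted p = 0.322, 0.336 and 0.314 with 8 libraries). Ighm, of the same list, stood at 37.1, 39.6, 35.6 and 29.8 CPM in heterozygous and 30.0, 11.6, 14.3 and 21.4 CPM in homozygous libraries. Its log2 fold change was -0.87 (SE 0.27, edgeR adjusted p = 0.185) with 8 libraries. With 7 it was -1.17 (SE 0.20, edgeR adjusted p = 0.0405), a call made for 111 of all 16560 genes in the lower direction. The part of cell composition in the chaperone values was not tested. Homozygous replicates 2 and 3 mapped at 98.36% and 92.36%, and the part of mapping was not tested either.

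The ATF4 targets did not move as a class. Their log2 fold change was positive for 10 of 18 genes with 8 libraries, 11 with 7 and 14 with 6, with medians of 0.02, 0.07 and 0.09. On the log2 TPM scale, which moved the median of all genes to -0.14 with 8 and -0.17 with 7 libraries, the class median was -0.12 and -0.13, so its sign depends on the scale while its distance from the other genes stayed small. Over the same fits the median of the ATF6 and XBP1 targets was -0.42 and -0.53 on the log2 TPM scale. Homozygous replicate 4 held the highest level of 7 of the 18 ATF4 targets, where it was highest for 12.4% of all genes tested.

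Ppp1r15a (GADD34), the phosphatase subunit that reverses eIF2 phosphorylation and is induced downstream of ATF4, separated most clearly. It is a minus-strand gene of chromosome 7, from 45522916 to 45526268. Its level was 15.1, 14.2, 15.5 and 14.6 CPM in heterozygous and 16.1, 22.7, 19.3 and 18.3 CPM in homozygous libraries. No homozygous library overlapped the heterozygous ones, and homozygous replicate 1 was the closest. The means were 14.9 ± 0.567 CPM (SD, n = 4) and 19.1 ± 2.76 CPM (SD, n = 4), or 20.1 ± 2.30 CPM (SD, n = 3) without homozygous replicate 1. Ppp1r15a had a log2 fold change of 0.36 (SE 0.10, edgeR adjusted p = 0.148) with 8 libraries, 0.44 (SE 0.09, edgeR adjusted p = 0.0539) with 7 and 0.44 (SE 0.10, edgeR adjusted p = 0.0648) with 6. It stayed above the threshold in those fits. It passed in DESeq2 (adjusted p = 0.0422 with 8 and 0.00354 with 7) and, with 7 libraries, without a filter on low counts and without homozygous replicate 4 (edgeR adjusted p = 0.0381 and 0.0367). On the log2 TPM scale the fold change was 0.16 with 8 libraries (limma adjusted p = 0.271) and 0.20 with 7 (limma adjusted p = 0.181), so its size depends on the scale. The 250 bases before its start, shown as the ATF4 target with the smallest p, held none of the 4 elements.
Ppp1r15a, chr7:45526269-45526518, minus strand: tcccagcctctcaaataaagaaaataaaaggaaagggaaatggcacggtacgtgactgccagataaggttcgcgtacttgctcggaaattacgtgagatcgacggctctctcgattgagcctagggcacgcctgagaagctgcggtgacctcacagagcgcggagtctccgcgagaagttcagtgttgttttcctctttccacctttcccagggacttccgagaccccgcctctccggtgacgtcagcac

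**Figure D4:**
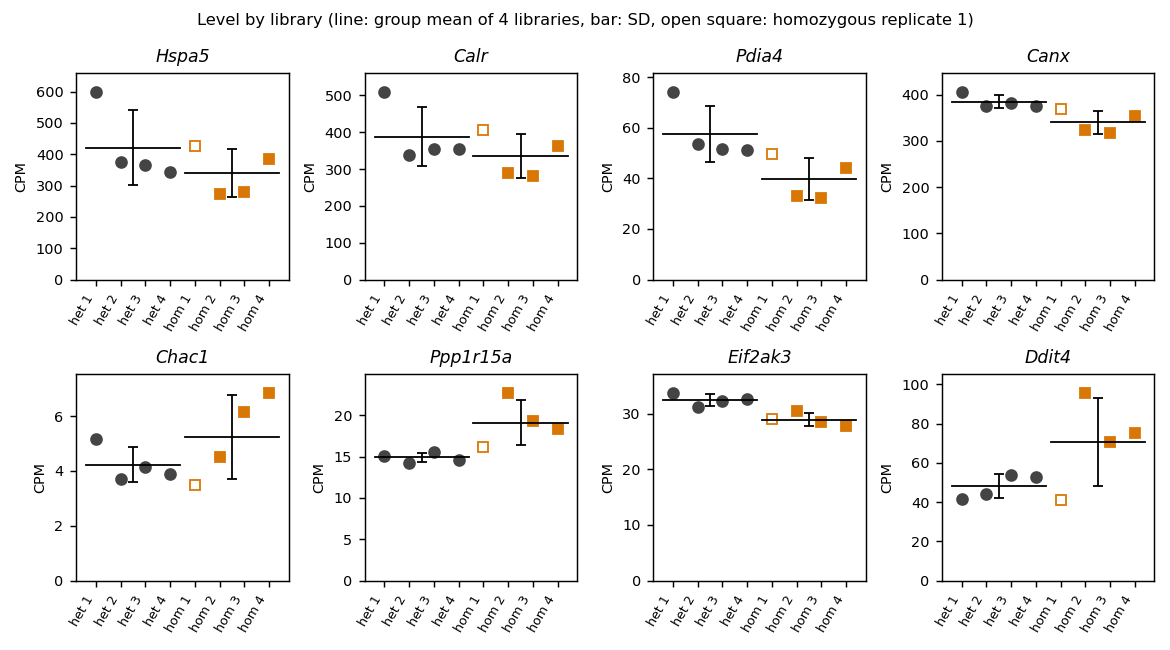
CPM of 8 genes in each library, with a line at the mean and a bar for the SD of each group of 4 libraries; the open square is the library labelled homozygous replicate 1. Pdia4, Canx, Eif2ak3 and Ppp1r15a show no overlap between the groups, while in Hspa5 and Calr heterozygous replicate 1 stands far above the rest.

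The stress effectors of the PERK arm were mixed. Chac1 measured 5.16, 3.72, 4.14 and 3.90 CPM in heterozygous and 3.47, 4.50, 6.16 and 6.85 CPM in homozygous libraries. Homozygous replicates 3 and 4 were above every heterozygous library, replicate 2 was inside their range, and replicate 1 was the lowest of all. The log2 fold change of Chac1 was 0.31 (SE 0.21, edgeR adjusted p = 0.472) with 8 libraries and 0.46 (SE 0.18, edgeR adjusted p = 0.192) with 7. With 6 libraries it was 0.57 (SE 0.17, edgeR adjusted p = 0.134), and the groups did not overlap. Without homozygous replicate 4 the 8-library value was 0.15, and on the log2 TPM scale it was 0.08, or 0.20 with 7. Ddit3 (CHOP), the pro-apoptotic factor, stood at 30.2, 23.4, 23.0 and 20.9 CPM against 23.6, 24.6, 26.3 and 34.9 CPM, with its 2 highest values in heterozygous replicate 1 and homozygous replicate 4. With 6 libraries its groups did not overlap, the homozygous values being higher. Trib3, which binds and restrains AKT and ATF4, measured 0.721, 0.465, 0.548 and 0.471 CPM against 0.784, 0.633, 0.524 and 0.555 CPM, with its maximum in homozygous replicate 1. Atf5 ranged from 14.2 to 17.4 CPM in heterozygous and 11.8 to 19.3 CPM in homozygous libraries, and Nupr1 from 3.30 to 4.90 and 3.21 to 4.88 CPM.

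Sesn2, a leucine sensor that restrains mTORC1, measured 13.0, 14.1, 15.5 and 14.7 CPM in heterozygous and 13.8, 16.5, 17.6 and 16.2 CPM in homozygous libraries. The log2 fold change was 0.16 (SE 0.09, edgeR adjusted p = 0.393) with 8 libraries and 0.23 (SE 0.09, edgeR adjusted p = 0.189) with 7. On the log2 TPM scale the 7-library value was 0.01. Without homozygous replicate 1 the groups did not overlap. Pck2, the mitochondrial enzyme that makes phosphoenolpyruvate, likewise did not overlap without that library and is named for this after its values were seen. Its levels were 15.6, 20.4, 22.4 and 20.4 CPM against 17.0, 24.6, 23.0 and 24.9 CPM. Heterozygous replicate 1 and homozygous replicate 1 were its 2 lowest libraries. In all, 1 member was higher in every homozygous than in every heterozygous library with 8 libraries (Ppp1r15a, background 4.61%) and 4 were lower (Aldh18a1, Pdia4, Canx and Eif2ak3, background 4.67%). With 7 libraries 4 were higher (Ppp1r15a, Sesn2, Pck2 and Dnajb9, background 9.76%) and 5 lower, the former 4 and Dnajc3 (background 8.77%). With 6 libraries 7 were higher, those of the 7-library comparison with Chac1, Ddit3 and Stc2, where 2028 of all 16425 genes tested were higher. The same 5 were lower, where 1957 of the 16425 were.

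The serine, one-carbon and amino acid genes that ATF4 drives stayed close to their heterozygous levels. Asns, which makes asparagine, ranged from 76.2 to 79.4 CPM in heterozygous and 75.3 to 87.0 CPM in homozygous libraries. Psat1, of the serine pathway, stood at 141, 136, 157 and 141 CPM against 161, 157, 147 and 162 CPM, with a log2 fold change of 0.13 (SE 0.06, edgeR adjusted p = 0.334) with 8 libraries that turned to -0.02 on the log2 TPM scale. Its neighbours in that pathway, Phgdh and Psph, ranged from 60.6 to 79.1 and 13.0 to 16.3 CPM in heterozygous and 59.6 to 74.0 and 13.4 to 15.4 CPM in homozygous libraries. The mitochondrial folate enzyme Shmt2 ranged from 11.9 to 14.2 and 13.3 to 15.7 CPM, and Mthfd2 from 7.78 to 9.38 and 6.77 to 10.8 CPM. These ranges overlap for each of the 6 genes.

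Aldh18a1, which starts proline synthesis from glutamate, ranged from 20.3 to 22.1 CPM in heterozygous and from 18.7 to 20.2 CPM in homozygous libraries. Its groups lay side by side without overlap. The enzyme had a log2 fold change of -0.12 (SE 0.06, edgeR adjusted p = 0.342) with 8 libraries, opposite in sign to the class median. Slc3a2 ranged from 108 to 118 CPM in heterozygous and 103 to 111 CPM in homozygous libraries, and the lipoprotein receptor Vldlr from 76.8 to 90.3 and 78.5 to 89.1 CPM. Stc2, a secreted glycoprotein, was at 3.34 CPM in heterozygous replicate 1 and 1.73 to 2.94 CPM in the other 7 libraries. Across the 6 ATF4 targets with a CARE the median log2 fold change was 0.11, 0.07 and 0.13 with 8, 7 and 6 libraries, beside -0.02, 0.03 and 0.07 for the 12 without one.

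The sensors and factors had medians of -0.12, -0.11 and -0.10 with 8, 7 and 6 libraries. Eif2ak3, which encodes PERK, stood at 33.7, 31.1, 32.3 and 32.7 CPM in heterozygous and 29.1, 30.4, 28.5 and 27.8 CPM in homozygous libraries. Every homozygous library was below every heterozygous one. Eif2ak3 had a log2 fold change of -0.16 (SE 0.06, edgeR adjusted p = 0.203) with 8 libraries and -0.17 (SE 0.07, edgeR adjusted p = 0.2) with 7, and among the alternatives it passed only on the log2 TPM scale with 7 libraries, at -0.37 (limma adjusted p = 0.0396).

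Ern1, which encodes IRE1, ranged from 10.3 to 11.4 CPM in heterozygous and 9.51 to 10.3 CPM in homozygous libraries (log2 fold change -0.12, SE 0.08, edgeR adjusted p = 0.466 with 8 libraries). Xbp1, whose mRNA IRE1 splices, had the chaperone pattern at its ends, with 111, 86.2, 83.3 and 75.1 CPM in heterozygous and 85.9, 69.1, 75.2 and 81.5 CPM in homozygous libraries. Its log2 fold change was -0.19 (SE 0.12, edgeR adjusted p = 0.43) with 8 and -0.24 (SE 0.13, edgeR adjusted p = 0.326) with 7 libraries. Without heterozygous replicate 1 these were -0.06 and -0.11, and on the log2 TPM scale -0.35 and -0.44. The counts are per gene and do not tell spliced from unspliced Xbp1. Atf6 ranged from 89.9 to 136 CPM in heterozygous and 96.2 to 114 CPM in homozygous libraries, and Atf4, whose protein is set mostly by translation, from 89.1 to 124 and 107 to 121 CPM. Heterozygous replicate 1 was the highest library for 4 of the 5 genes.

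**Figure D5:**
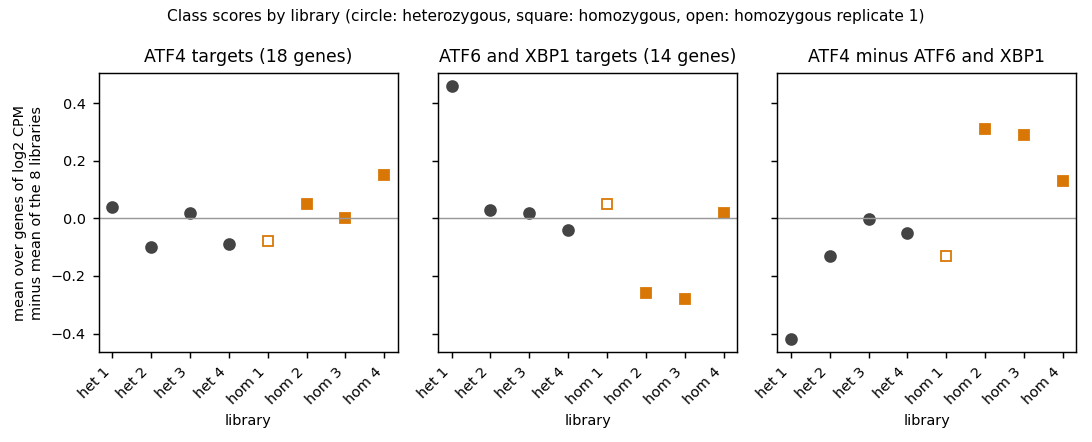
Score of each library for the ATF4 targets, for the ATF6 and XBP1 targets, and the first less the second, as the mean over genes of log2 CPM less its mean over the 8 libraries. In the difference, homozygous replicates 2, 3 and 4 (0.31, 0.29 and 0.13) lie above the heterozygous libraries, and the library labelled homozygous replicate 1 (-0.13) lies among them.

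The contrast between the classes was summarised per library as the mean log2 CPM of the ATF4 targets less that of the ATF6 and XBP1 targets, each taken from its mean over the 8 libraries. It was -0.42, -0.13, -0.0037 and -0.05 in heterozygous replicates 1 to 4 and -0.13, 0.31, 0.29 and 0.13 in homozygous replicates 1 to 4. The groups overlapped through the library labelled homozygous replicate 1, and stood apart without it. Homozygous less heterozygous was 0.30 with 8 libraries, 0.39 with 7 and 0.30 with 6, where the SDs of the homozygous group were 0.20, 0.10 and 0.10 and those of the heterozygous group 0.19, 0.19 and 0.06. Both classes contributed: the ATF6 and XBP1 score was 0.46, 0.03, 0.02 and -0.04 in heterozygous and 0.05, -0.26, -0.28 and 0.02 in homozygous libraries, and the ATF4 score 0.04, -0.10, 0.02 and -0.09 against -0.08, 0.05, 0.0024 and 0.15. In each class alone the groups overlapped with 8, 7 and 6 libraries. The difference in homozygous replicates 2 and 3 came mainly from low ATF6 and XBP1 targets, and in homozygous replicate 4 from high ATF4 targets. No p-value is given, since the members were chosen with earlier results of these data known.

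Glial markers also differed between the homozygous libraries. The summed level of 7 reactive astrocyte markers was 389 to 502 CPM in heterozygous libraries, 388 CPM in homozygous replicate 1, and 731, 684 and 1583 CPM in homozygous replicates 2 to 4. That of 7 markers of activated microglia was 52.4 to 64.7 CPM in heterozygous libraries and 61.5, 75.7, 82.4 and 130 CPM in homozygous replicates 1 to 4. Homozygous replicate 4, with the highest ATF4 score, had the highest sum of both lists, and its RNA integrity number was 8 where all others had 9. With 7 libraries 2 of the 7 astrocyte and 4 of the 7 microglia markers were called higher, where 91 of all 16560 genes were. Steap4 of the astrocyte list went the other way (-0.93, edgeR adjusted p = 0.214), and Gfap alone held 1352 of the 1583 CPM in homozygous replicate 4. The 6 general microglia markers summed to 254 to 308 CPM in heterozygous and 222 to 281 CPM in homozygous libraries. Of them, 1 was called lower with 7 libraries (Tmem119, -0.56, edgeR adjusted p = 0.0462), where 111 of 16560 genes were. The part of glial cells in the ATF4 values was not tested.

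Beyond the 37 members, 87 other genes of the pathways were listed by role, of which 84 were tested. With 8 libraries none passed edgeR's test, though unadjusted p was below 0.05 for 10 higher and 8 lower genes (11.9% and 9.52% of the 84, beside 7.87% and 8.90% of all genes), and DESeq2 called 3 (4.57% of all genes). With 7 libraries 1 of the 84 passed, where 1.22% of all 16560 genes did, so the count is near the background. With 6 libraries Ddit4 and Atf3 were called higher and Slc7a11 lower, where 1.41% of all 16425 genes were called. The called gene with 7 libraries was Ddit4 (REDD1), an inhibitor of mTORC1 that ATF4 and other stress factors induce. It stood at 41.3, 44.1, 53.8 and 52.9 CPM in heterozygous and 40.8, 95.6, 70.8 and 75.3 CPM in homozygous libraries, so homozygous replicates 2 to 4 were above all others and homozygous replicate 1 was the lowest. Without homozygous replicate 1 it rose, with a log2 fold change of 0.74 (SE 0.13, edgeR adjusted p = 0.0368), and with it the value was 0.55 (edgeR adjusted p = 0.277). The call was lost when heterozygous replicate 2, 3 or 4 or homozygous replicate 2 or 3 was left out as well, with edgeR adjusted p up to 0.0963.

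Slc7a11 and Slc7a5 had the smallest p of the amino acid transporters in this list, and both were lower. Slc7a11, the cystine transporter subunit that pairs with Slc3a2, measured 31.6, 37.3, 47.0 and 47.8 CPM in heterozygous and 31.2, 22.1, 20.5 and 28.1 CPM in homozygous libraries, with no overlap. Its log2 fold change was -0.68 (SE 0.17, edgeR adjusted p = 0.136) with 8 libraries, -0.79 (SE 0.17, edgeR adjusted p = 0.0616) with 7 and -0.90 (SE 0.14, edgeR adjusted p = 0.0282) with 6, where it fell. DESeq2 called it with 8 libraries (adjusted p = 0.0048). Slc7a5, the large neutral amino acid transporter, measured 65.9, 74.3, 83.2 and 72.9 CPM against 48.9, 55.0, 62.2 and 63.0 CPM, again with no overlap (edgeR adjusted p = 0.135 with 8 libraries and 0.112 with 7, DESeq2 adjusted p = 0.0157 with 8). The other transporters, Slc7a1, Slc1a4, Slc1a5 and Slc38a2, had log2 fold changes of -0.15, -0.09, 0.04 and 0.01 with 8 libraries. Of 28 tested ATF4 targets in this list, 14 had a positive and 14 a negative fold change with 8 and with 7 libraries.

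None of the 10 genes for eIF2 kinases, eIF2 and eIF2B subunits and the eIF2 phosphatase subunit Ppp1r15b passed, with log2 fold changes between -0.14 for Eif2ak4 (GCN2) and 0.21 for Eif2b3 with 8 libraries. Among 39 other genes of ER folding, translocation and degradation, none passed with 8 or 7 libraries, 22 were positive and 17 negative with 8, and the median was 0.0082. Heterozygous replicate 1 held the highest level of 9 of these 39 genes (23.1%), where it held 12 of 14 in the ATF6 and XBP1 class. Partners of Hspa5 in this list differed in order. Hyou1 (GRP170) stood at 150 CPM in heterozygous replicate 1 and 90.4 to 119 CPM elsewhere, and Dnajb11 at 69.9 CPM and 42.6 to 54.2 CPM, while Dnajc10 and Sil1 had their lowest level in that library, at 65.1 CPM (75.1 to 88.8 CPM elsewhere) and 13.5 CPM (16.1 to 18.1 CPM elsewhere). All 4, and Pdia3 at 247 CPM there and 155 to 201 CPM elsewhere, are named after their values were seen. Edem3 (-0.25 on the log2 scale, SE 0.07, edgeR adjusted p = 0.151) and Kdelr3, a receptor that returns ER proteins from the Golgi (0.615 to 1.12 CPM in heterozygous and 0.183 to 0.604 CPM in homozygous libraries), had the smallest p of this list with 8 libraries and did not pass. The other receptors of that kind, Kdelr1 and Kdelr2, ranged from 42.9 to 44.9 and 19.2 to 21.2 CPM in heterozygous and 43.4 to 55.8 and 18.6 to 25.1 CPM in homozygous libraries.

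The authors' deposited table of their comparison lists 185 genes, all with a log2 fold change of 1 or more in size. None of the 37 members is among them, and 2 of the 87 other pathway genes are. The series has 47643 gene rows, and the authors' settings are not stated, so no tested background stands beside these counts. The largest shift of a member in the 3 comparisons here was -0.66, for Pdia4 with 7 libraries. Shifts of that size are not in the authors' list, so the absence of members says little about them. In the authors' deposited table Atf3, a stress factor induced downstream of ATF4, has a log2 fold change of 1.52 (false discovery rate 6.26e-06) and Cebpb, a partner of CHOP and ATF4, one of 1.06 (false discovery rate 0.0144). Atf3 stood at 3.74, 1.06, 1.45 and 1.36 CPM in heterozygous and 2.69, 3.39, 3.67 and 4.73 CPM in homozygous libraries, so heterozygous replicate 1, which is not named in the headers of the authors' tables of selected genes, was among the homozygous values. Its edgeR adjusted p was 0.261 with 8 libraries, 0.205 with 7 and 0.0215 with 6. Cebpb stood at 1.36, 1.16, 0.767 and 0.785 CPM against 0.966, 1.86, 2.50 and 1.70 CPM, with an edgeR adjusted p of 0.251, 0.0958 and 0.0689 in the same order.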

How the data were processed

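Spinal cord RNA was sequenced in 8 libraries. The submitters' processing notes name cutadapt, STAR, Picard and RSEM and the build mm10; the sources used here give no versions or annotation. The authors deposited RSEM expected counts and TPM per gene, per the file headers. The authors deposited an edgeR comparison with log2 fold changes, p-values and false discovery rates (settings not stated) and a sequencing report with other values per library (mapping, ribosomal bases, RNA integrity).

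Expected counts (10.4% of values not whole) were rounded. RSEM divides reads between similar genes, so members with close copies are less certain. Library totals were 26321497 to 37879391. Groups follow the genotype label; replicate numbers follow deposition order and pair nothing. The genotype comparison used edgeR 4.0.16 under R 4.3.3 (TMM, filterByExpr, robust quasi-likelihood fit, Benjamini-Hochberg over all genes tested, threshold 0.05); SE refers to the log2 fold change. Scores used log2 CPM with a prior count of 2. Members and lists were chosen with earlier results of these data known. Fold change, SE and adjusted p are given for members past the threshold and the 3 with the smallest p of each class in each fit, and, of other pathway genes, for those past the threshold or the 4 with the smallest p; any member may be given by level. Alternatives were DESeq2's size factors, no filter on low counts, at least 1 CPM in 4 libraries (3 with 7), DESeq2 1.42.0, limma-voom and limma (3.58.1) on log2(TPM + 1), a fit that was not robust, a threshold of 0.1, class medians in place of means, and each library left out. The procedure was tested on simulated counts. Of 47643 gene identifiers 47224 matched GENCODE M21 (GRCm38), used for positions; promoters are from RefSeq. Tables were read and drawn with Python 3.11.15, pandas 2.3.3 and matplotlib 3.10.9. Demultiplexing, RPKM and selected-gene tables were not used for values.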

Additional observations from a re-analysis of the deposited data

Results flagged for a closer look

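Each member was examined in each group of 4 libraries (74 in all) for a highest or lowest library set apart from the other 3 by more than Dixon's critical share of the group's range, a gap that chance gives in about 1 group in 20. There were 9 such cases, and 7 of them were high values in heterozygous replicate 1. Of those, 6 were ATF6 and XBP1 targets. Hspa5 stood at 599 CPM in that library and at 345 to 376 CPM in the other heterozygous libraries. Calr stood at 509 CPM, against 337 to 354 CPM. Pdia6 was at 165 CPM, against 106 to 115 CPM, and Pdia4 at 74.2 CPM, against 51.4 to 53.5 CPM. Creld2 was at 20.3 CPM, against 12.1 to 12.4 CPM, and Edem1 at 21.2 CPM, against 19.4 to 19.6 CPM. Stc2, an ATF4 target, was at 3.34 CPM, against 1.73 to 1.99 CPM. The remaining cases were in homozygous replicate 4, where Herpud1 was at 64.0 CPM, against 58.2 to 58.3 CPM in the other homozygous libraries, and Atf6 at 96.2 CPM, against 113 to 114 CPM.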

How the results depend on the processing

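No paired analysis was possible because replicates were numbered by deposition and the labels pair no animals. The number of members called was 0 in edgeR's main fits and 2 with DESeq2 (8 libraries). With 7 libraries it was 4 with DESeq2 and 7 (all lower) with limma on log2 TPM. In edgeR with 7 libraries it was 1 with no filter on low counts, 2 at an adjusted p of 0.1 and 0 to 2 when 1 library was left out. The number of other pathway genes called was 0 with 8 libraries, 3 with DESeq2 and 0 to 1 with 1 library left out. With 7 libraries it was 1, and 6 with DESeq2, 13 with limma on log2 TPM, 2 with no filter, 4 at an adjusted p of 0.1 and 0 to 3 with 1 library left out. On the log2 TPM scale the ATF4 class median moved from 0.02 to -0.12 with 8 libraries and from 0.07 to -0.13 with 7, the ATF6 and XBP1 median from -0.32 to -0.53 with 7, and 3 values reversed: Psat1 (-0.02 with 8, -0.07 with 7) and Sesn2 (-0.01 with 8). The cause was not tested. The class contrast kept its sign, from 0.29 to 0.31 with 8 libraries over other settings and 0.21 to 0.39 with 1 library left out. Over all alternatives, 458 values of single genes kept their direction and side of the threshold, while 28 passed it only under an alternative and 5 lost it. Of the summary values, 120 counted as kept and 23 as moved. A class median could count as kept despite a shift. With 8 libraries that of the ATF6 and XBP1 targets did so from -0.24 to -0.42 and to -0.10. Of all genes, DESeq2 called 4.57% with 8 libraries. With 7 libraries DESeq2 called 6.95%, limma on log2 TPM called 12.5% lower, no filter gave 1.65% and a threshold of 0.1 gave 5.04%. No share is given for limma in both directions or for most omissions of 1 library, so those counts have no background beside them. Genes under 1 CPM, such as Trib3, rest on few counts.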
